A study of Mus musculus with 8 samples.

Results

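The subunits of 2 chromatin complexes, NuRD and BAF, were examined in the striatum of newborn mice that lack Ctip2, the zinc finger transcription factor now listed as Bcl11b. The members were all probe sets whose annotation gives a single gene symbol from a list of 40 subunit genes. Every gene on the list was found, among 18193 genes with a probe set of 1 symbol. They had 95 of the 45037 probe sets on the array, 34 for 14 NuRD genes and 61 for 26 BAF genes. Each Affymetrix array carried RNA from the striatum of 1 BALB/c mouse at postnatal day 0, from 4 Ctip2 null mutants, 1 Ctip2 heterozygote and 3 wild type mice. Punches from the centre of the striatum were matched along the rostro-caudal axis. The labels do not give the part of Ctip2 that the null mutants lack, and strain and age were shared by all groups. The values are log2 expression values, so a difference of 1 is a 2-fold change. The arrays tell what RNA was present and nothing about the proteins or the assembled complexes.

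NuRD, the nucleosome remodelling and deacetylase complex, joins a CHD family ATPase to histone deacetylases and to proteins that bind methylated DNA or other scaffolds, and is known mainly for repression. BAF, the mammalian SWI/SNF complex, uses the ATPase Smarca4 or Smarca2 to move or eject nucleosomes. Bcl11b has been found with both, as a partner of NuRD and as a subunit of BAF. When neural progenitors leave the cell cycle, BAF is known to exchange the subunits encoded by Actl6a, Phf10 and Ss18 for those encoded by Actl6b, by Dpf1 or Dpf3, and by Ss18l1. At birth the striatum holds mostly postmitotic neurons beside remaining progenitors and glia, so that subunits of both kinds may be present.

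Bcl11b, the targeted gene, was lower in every null array than in every wild type array and still well above the median level in all of them. Its 4 probe sets were 1.11 to 1.66 lower in null than in wild type on the log2 scale. On the brightest the mean was 11.18 ± 0.20 (SD, n = 4) in null and 12.29 ± 0.25 (SD, n = 3) in wild type. The array labelled heterozygote read 12.43, 9.72, 11.33 and 10.48 on the 4 probe sets, inside the wild type range on 3 and above it on 1, so they do not set it apart from wild type. Whether they lie in the part of the gene that was removed is not known from the labels, so they are a limited check of the genotypes. All 10 measured markers of medium spiny neurons were above the median level of the arrays. Their mean log2 value was 9.49 to 9.79 in null, 10.58 in the heterozygote and 9.74 to 10.10 in wild type, and 4 of them fell while 1 rose. Markers of other cells moved as well. The mean over 6 mature neuron markers was 9.97 to 10.38 in null and 9.01 to 9.44 in wild type, with 2 of 6 called higher, the neurofilament genes Nefl and Nefm, which differed by 2.59 and 2.31. The other 4 did not pass, at 0.63 for Syt1, 0.41 for Snap25, 0.19 for Rbfox3 and -0.24 for Camk2b. The mean over 6 neuroblast markers was 11.85 to 12.17 in null and 11.53 to 11.78 in wild type (1 of 6 higher), and that over 5 microglial markers 7.30 to 7.80 in null and 6.94 to 7.10 in wild type (0 of 5 called). The mean over 6 measured markers of proliferating progenitors overlapped, at 7.81 to 8.29 in null and 7.91 to 8.16 in wild type, and 1 of 6 was called higher, the stem cell factor Sox2 (1.61-fold, adjusted p = 0.0459), without overlap. Choroid plexus markers overlapped too (5.76 to 7.65 in null, 6.44 to 7.53 in wild type), and 3 of 5 measured markers of cortical glutamatergic neurons were below the median level. Their part in the results below was not tested, and in tissue RNA a change in the share of a cell type cannot be told apart from a change in RNA per cell.

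In the null striatum 3 subunit genes rose and 0 fell. They were Chd5 in NuRD, and Smarca2 and Bcl7c in BAF, with 5 probe sets between them at an adjusted p under 0.05 (limma, Benjamini-Hochberg over all probe sets). These 5 are 5.26% of the 95 probe sets, where 1.87% of all probe sets were called higher, and 0 of 95 were called lower, where 0.453% of all were. At an unadjusted p under 0.05, 17 member probe sets were higher and 5 lower, where 10.9% and 8.74% of all probe sets were. SAM, which the study used, put 15 (15.8%) above a score of 2 and 9 below -2, where 10.3% and 12.7% of all probe sets were. With 1 probe set per gene and adjustment over genes, 3 of 40 genes were higher, where 2.86% of all genes were, and 0 were lower, where 0.786% were. Bright probe sets were called higher more often than dim ones on these arrays, at 3.23% above the median level and 0.502% below it. All 5 calls lay among the 76 member probe sets above the median, of which they are 6.58%. The other 90 probe sets did not pass.

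**Figure D1:**
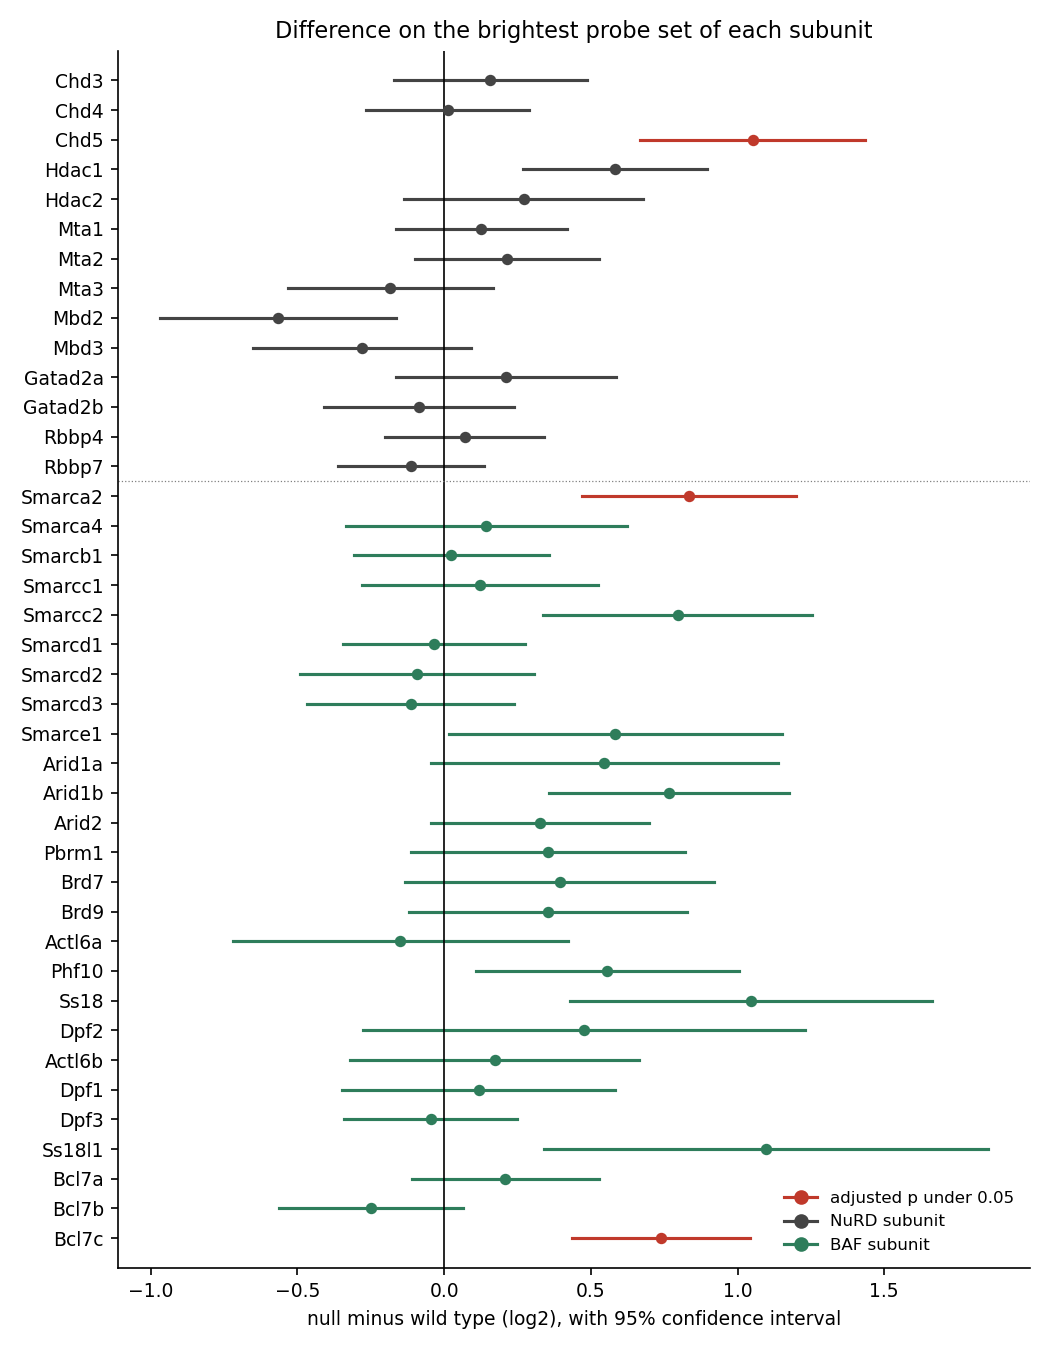
Null minus wild type difference on the log2 scale for the brightest probe set of each of 40 subunit genes, with its unadjusted 95% confidence interval from limma (4 null and 3 wild type arrays). NuRD subunits stand above the dotted line and BAF subunits under it; Chd5, Smarca2 and Bcl7c, in red, are the genes with an adjusted p under 0.05 over all probe sets.

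Chd5, the NuRD ATPase made mainly in neurons, had 1 probe set (1436095_at). It read 9.75, 9.80, 10.19 and 9.58 in null arrays 1 to 4, 9.38 in the heterozygote and 8.62, 8.68 and 9.04 in wild type arrays 1 to 3. Every null array was above every wild type array, and the heterozygote stood between the groups. The means of 9.83 ± 0.26 (SD, n = 4) in null and 8.78 ± 0.23 (SD, n = 3) in wild type gave a 2.07-fold rise (log2 difference 1.05, 95% interval 0.67 to 1.44, adjusted p = 0.0166). The call was lost without wild type 2 (adjusted p = 0.0726), without null 2 (0.0553), when the heterozygote joined the controls (0.0936), without wild type 1 and null 2 together (0.0932) and when the fit held a covariate for the spread (SD) of each array (0.117). With this covariate the difference was 0.92. The mean values of the mature neuron, neuroblast and microglial marker lists given above were apart in the same arrays. This holds equally for Smarca2 and Bcl7c below, which were compared on the same mice. In the mature neuron list only Nefl and Nefm were called, and a part of these cells in any of the rises was not tested.

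The other ATPases of NuRD, Chd3 and Chd4, had no call. Chd3 averaged 10.62 ± 0.24 (SD, n = 4) in null and 10.46 ± 0.05 (SD, n = 3) in wild type, a difference of 0.16 (95% interval -0.17 to 0.49, adjusted p = 0.527). Chd4, the ubiquitous ATPase of the complex, differed by 0.01 (-0.27 to 0.29) on its brightest probe set, by 0.33 (-0.18 to 0.84) on the next and by -0.12 on the dimmest. The interval of that middle Chd4 probe set overlaps with the interval for Chd5, and the difference between the genes was not tested.

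Smarca2, which encodes the ATPase known as BRM, rose on the brighter of its 2 probe sets (1430526_a_at). It read 9.20, 9.41, 9.57 and 8.91 in null arrays 1 to 4, 9.16 in the heterozygote and 8.47, 8.34 and 8.49 in wild type arrays 1 to 3. Null and wild type did not overlap, and the heterozygote lay inside the null range. The rise was 1.78-fold (log2 difference 0.83, 95% interval 0.47 to 1.20, adjusted p = 0.0319). The dimmer probe set read 7.75, 8.15, 7.94 and 7.65 in null, 7.62 in the heterozygote and 7.27, 7.19 and 7.54 in wild type, without overlap but also without a call (difference 0.54, adjusted p = 0.109). The call on the brighter one was lost without wild type 2 (0.127) or 3 (0.110), without null 1 (0.0809), 2 (0.107) or 3 (0.0591) or wild type 1 and null 2 together (0.125), after median centring (0.0583), when the heterozygote joined the controls (0.283) and under the spread covariate (0.149, with a difference of 0.58). Smarca4, the alternative ATPase known as BRG1, differed by 0.14 (95% interval -0.34 to 0.62, adjusted p = 0.694) and by 0.21 (-0.24 to 0.65) on its 2 probe sets.

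Bcl7c, whose product is a small accessory subunit of BAF, had the largest difference of all members. Its probe set 1446516_at read 7.93, 8.53, 9.20 and 7.89 in null arrays 1 to 4, 7.96 in the heterozygote and 6.41, 6.62 and 6.30 in wild type arrays 1 to 3. The lowest null array stood more than 1 log2 unit above the highest wild type array, and the heterozygote lay inside the null range. The rise was 3.84-fold (log2 difference 1.94, 95% interval 1.30 to 2.59, adjusted p = 0.0104). The gene's brightest probe set (1443898_at) rose 1.67-fold, with 8.24, 8.52, 8.16 and 8.04 in null, 7.85 in the heterozygote and 7.48, 7.52 and 7.50 in wild type (adjusted p = 0.0249). A further probe set (1447139_at) rose 1.82-fold, with 7.72, 8.35, 8.16 and 7.66 in null, 7.48 in the heterozygote and 7.19, 7.01 and 7.11 in wild type (adjusted p = 0.0410). On these 2 the heterozygote stood between the groups.

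The remaining Bcl7c probe set (1449523_at) did not rise with the others. It read 7.78, 7.51, 7.33 and 7.54 in null, 7.17 in the heterozygote and 6.99, 7.84 and 7.32 in wild type, so the groups overlapped (difference 0.16, 95% interval -0.29 to 0.60, adjusted p = 0.641). It is the only 1 of the 4 that the annotation ties to a RefSeq transcript, while the 3 that rose are tied to other sequence records. Which part of the gene each one reads was not analysed here, so the rise is a property of 3 of 4 probe sets. The call on 1446516_at was lost without wild type 3 (0.0637), when the heterozygote joined the controls (0.159) and under the spread covariate (0.0887, with a difference of 1.53). That on 1443898_at was lost without wild type 2 (0.0879) or 3 (0.103) or null 1 (0.0800) or 2 (0.0720), and that on 1447139_at without wild type 2 (0.155) or 3 (0.139), null 1 (0.0636), 2 (0.102) or 3 (0.0895) and after median centring (0.0715). When the heterozygote joined the controls these 2 had adjusted p values of 0.0957 and 0.123, and under the spread covariate 0.136 and 0.210. Without wild type 1 and null 2 together the 3 probe sets, in the order given, had 0.0727, 0.0978 and 0.110. The related genes Bcl7a and Bcl7b had no call. Bcl7a differed by 0.21 on its brightest probe set and by -0.51 on a dim one (adjusted p = 0.114), and Bcl7b by -0.25 (adjusted p = 0.333).

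**Figure D2:**
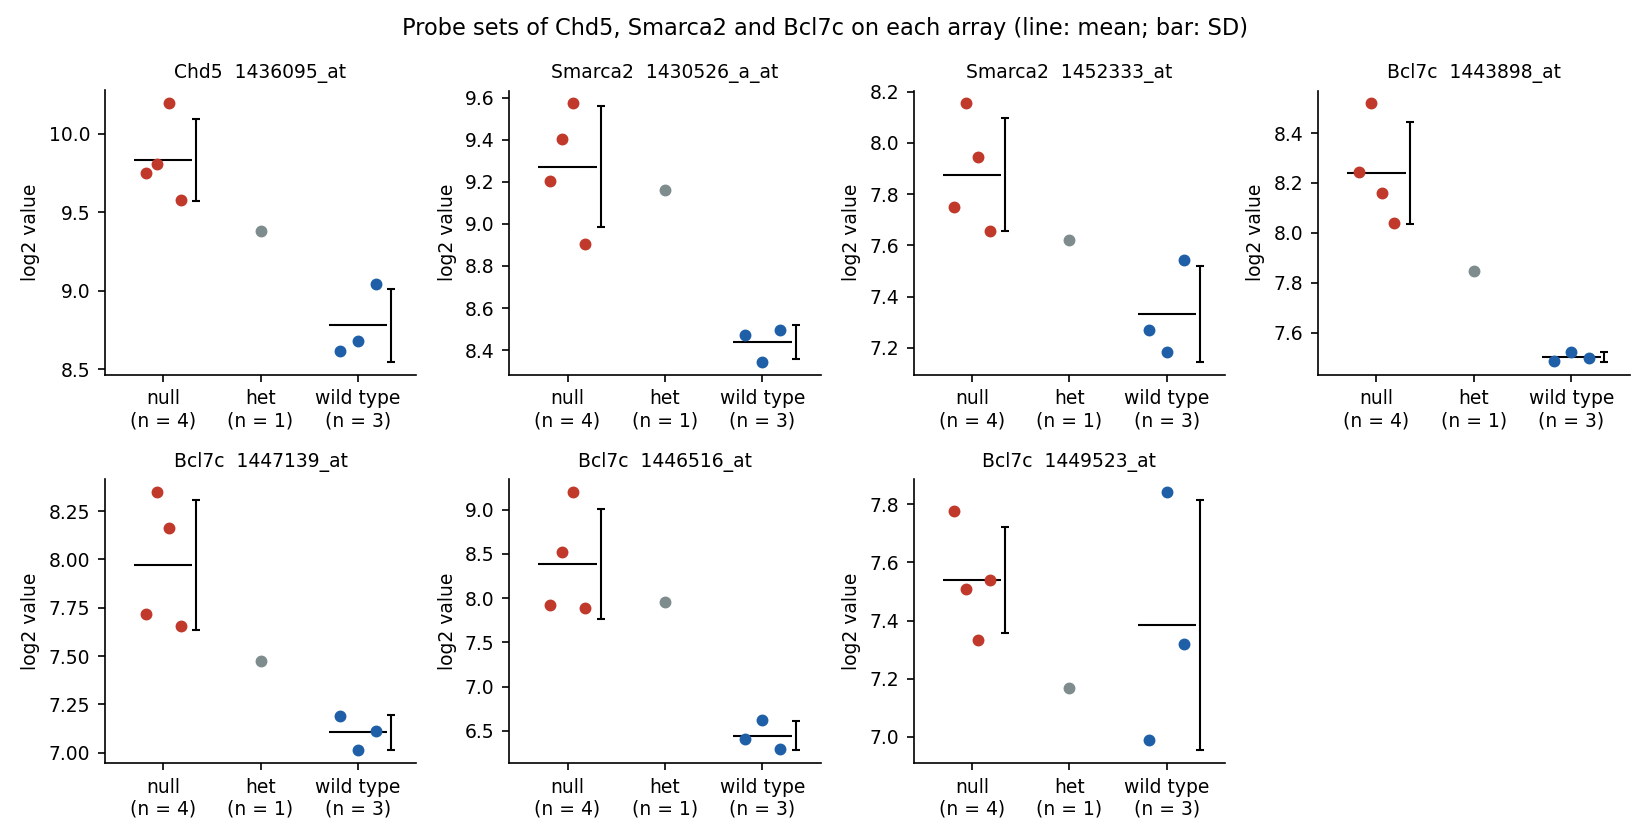
Log2 values of the probe sets of Chd5, Smarca2 and Bcl7c on each array, with null, heterozygote and wild type from left to right; lines are group means and bars SDs. Null arrays lie above all wild type arrays on every panel except that of Bcl7c 1449523_at, where wild type 2 (7.84) is the highest of the 8.

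The promoters of the genes that rose are shown as the DNA at their starts; no binding data were analysed. The 250 bases before the annotated start are given 5′ to 3′ on the gene's strand, from RefSeq on GRCm38.p6, with matches to GGCCGG on either strand (GGCCGG or CCGGCC) in capitals. This hexamer is part of a GC-rich element described for Bcl11b. The Chd5 window is at chr4:152338401-152338650 (+), the Smarca2 window at chr19:26604910-26605159 (+) and the Bcl7c window at chr7:127708767-127709016 (-).
Chd5: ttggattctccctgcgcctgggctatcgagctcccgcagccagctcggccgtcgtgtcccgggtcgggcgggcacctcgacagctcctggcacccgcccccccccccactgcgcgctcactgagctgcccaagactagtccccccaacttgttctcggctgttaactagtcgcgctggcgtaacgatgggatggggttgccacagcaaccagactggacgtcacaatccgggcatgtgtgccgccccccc
Smarca2: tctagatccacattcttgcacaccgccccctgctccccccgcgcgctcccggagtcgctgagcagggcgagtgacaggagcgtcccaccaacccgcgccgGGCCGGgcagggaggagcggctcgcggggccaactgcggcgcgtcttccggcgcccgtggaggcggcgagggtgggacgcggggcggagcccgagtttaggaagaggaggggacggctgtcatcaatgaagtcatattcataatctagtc
Bcl7c: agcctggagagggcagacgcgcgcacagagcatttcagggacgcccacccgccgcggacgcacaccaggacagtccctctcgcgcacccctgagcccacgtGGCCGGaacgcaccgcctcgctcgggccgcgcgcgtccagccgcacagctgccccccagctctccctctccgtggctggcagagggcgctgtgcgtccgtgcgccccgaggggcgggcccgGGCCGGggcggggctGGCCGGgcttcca

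The Bcl7c window held 3 matches to GGCCGG, the Smarca2 window 1 and the Chd5 window 0. TGACCA (or TGGTCA on the other strand), described for the related factor Bcl11a, had 0 matches in each of the 3; it cannot overlap GGCCGG. Windows were at hand for 32 of the 40 subunit genes. GGCCGG was in 17 of these 32 (53.1%), against 15.5% of 27025 windows of all genes, and TGACCA in 1 of 32 (3.12%), against 11.5%. The subunit windows were also much richer in CpG, with a median of 24.5 CpG per window against 6.0 in all genes, and GGCCGG itself contains a CpG. A match shows only that these letters are present.

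Apart from Chd5, no NuRD gene passed. Over the 14 NuRD genes, each on its brightest probe set, 9 differences were positive and 5 negative, with a median of 0.10. The median over 18193 genes was -0.08. Over all genes with a brightest probe set above the median level, where all 14 lay, it was 0.01, and 51% were positive. After quantile normalization 6 of 14 were positive, with a median of -0.04, where that of all probe sets was -0.05. This last background takes in dim probe sets, while all 14 were bright. Over all 34 NuRD probe sets the median was 0.03. Null arrays were all above wild type on 4 (11.8%, where 7.70% of all probe sets were) and all below on 1 (2.94%, where 8.85% were). Of all probe sets above the median level, 12.1% had null above and 7.95% null below, so the 11.8% is near the share of bright probe sets. The differences by gene spread around 0 apart from a few.

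The deacetylase Hdac1 came nearest to a call among these. It read 8.05, 8.30, 8.11 and 7.81 in null arrays 1 to 4, 8.14 in the heterozygote and 7.57, 7.37 and 7.52 in wild type arrays 1 to 3. Null and wild type did not overlap, and the difference of 0.58 (95% interval 0.27 to 0.90) missed the threshold with an adjusted p of 0.0670. It passed without null 4 (0.0276), with array weights (0.0215) and when the probe sets of each gene were averaged (0.0369). Averaging left the Hdac1 difference at 0.58, so that last pass came from fitting and adjusting over genes. Hdac2, the paralogous deacetylase, differed by 0.27, 0.32 and 0.26 on its 3 probe sets, all with overlap and adjusted p values of 0.397 to 0.463.

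Mbd2, the subunit that recognises methylated CpG, was the only NuRD gene with every null array below every wild type array. It read 7.92, 7.75, 7.42 and 7.94 in null, 7.91 in the heterozygote and 8.63, 8.31 and 8.03 in wild type. The gap between the groups was narrow, from 7.94 in null 4 to 8.03 in wild type 3, and the difference of -0.57 (95% interval -0.97 to -0.16) had an adjusted p of 0.145. Its other probe set differed by 0.03. Mbd3, which takes the same place in the complex without binding methylated DNA in mammals, differed by -0.28 (adjusted p = 0.352).

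The scaffold and bridging subunits had no call. Of the MTA scaffold genes, Mta2 read 7.83, 7.90, 8.05 and 7.84 in null and 7.85, 7.79 and 7.42 in wild type, a difference of 0.21 (adjusted p = 0.385), and Mta1 and Mta3 differed by 0.13 and -0.18 on their brightest probe sets. Gatad2a, which links the MBD and CHD subunits, read 7.35, 7.68, 8.04 and 7.57 in null and 7.59, 7.44 and 7.33 in wild type, a difference of 0.21 (adjusted p = 0.464). Its 5 probe sets ranged from -0.25 to 0.37, and 5 of its paralogue Gatad2b ranged from -0.09 to 0.47. On the Gatad2a probe set at 0.37 and the Gatad2b one at 0.47, every null array was above every wild type array (adjusted p = 0.196 and 0.229). The histone chaperone genes Rbbp7 and Rbbp4 are shared with other complexes. Rbbp7 read 11.93, 11.92, 12.00 and 12.01 in null and 12.17, 12.05 and 12.00 in wild type (difference -0.11, 95% interval -0.36 to 0.14), and Rbbp4 differed by 0.07 (-0.20 to 0.34) on its brightest probe set. Both of these probe sets carry a suffix for probes that can bind several transcripts.

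Among BAF genes more differences were positive than negative, and their number depended on how the arrays were scaled. With the deposited values 20 of 26 BAF genes were positive on their brightest probe sets, with a median of 0.34. Of all genes 39.4% were positive. Of those with a brightest probe set above the median level, where all 26 lay, 51% were, with a median of 0.01. Null arrays were all above wild type on 5 of the 26 (19.2%) and all below on 0, where 12% and 8.61% of genes above that level were. Over all 61 BAF probe sets null was above on 8 (13.1%) and below on 6 (9.84%). Of all probe sets above the median level 12.1% and 7.95% were, so these shares are near those of bright probe sets. After quantile normalization 15 of 26 BAF genes were positive, with a median of 0.13, where that of all probe sets was -0.05. Under the spread covariate 15 of 26 were positive and the median was 0.04, where that of all probe sets was -0.01. In both settings the background takes in dim probe sets, while all 26 were bright, so the comparison is not like for like. Of all 95 member probe sets, the 76 above the median level had a median difference of 0.19, where all probe sets above that level had 0.01, and the 19 below it had -0.01, where all had -0.13. Across the array the difference depended on level. The median over all probe sets was -0.13 in bin 2 of 10 equal bins by level and 0.16 in bin 10, the brightest, which holds 24 of the 95 members. The Chd5, Smarca2 and Bcl7c probe sets passed after quantile normalization too, with adjusted p values of 0.00627 to 0.0325.

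**Figure D3:**
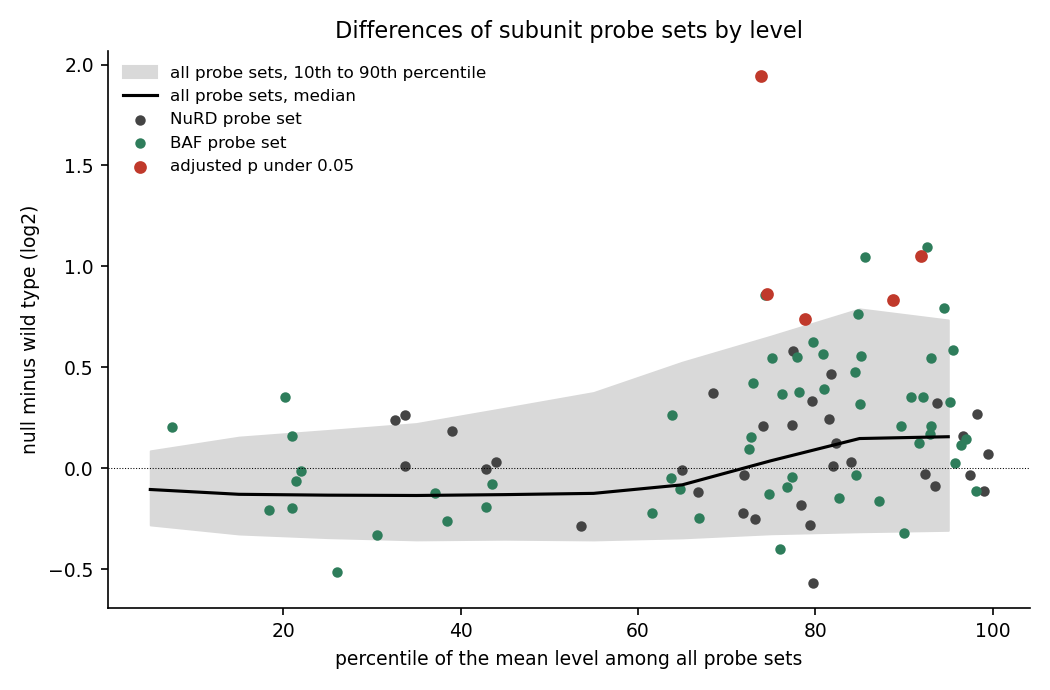
Null minus wild type difference (log2) of 95 subunit probe sets against the percentile of their mean level among all probe sets; the line is the median and the band the 10th to 90th percentile of all probe sets in 10 bins by level. The median line reaches 0.16 in the brightest bin, and the 5 called probe sets, in red, lie above the band.

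The arrays of a genotype were not alike on these subunits. On the 76 member probe sets above the median level, wild type 1 was the highest wild type array on 38 (50.0%, where 43.0% of all such probe sets had it highest), and null 4 was the lowest null array on 44 (57.9%, where 39.0% had). The SD of all values was 1.97 in wild type 1 and 1.84 and 1.87 in the other wild type arrays, and 1.90 in null 4 and 1.96 to 2.05 in the other null arrays. On their brightest probe sets the 40 genes had a median of 9.17, 9.40, 9.28 and 8.91 in null arrays 1 to 4, 9.11 in the heterozygote and 8.85, 8.55 and 8.49 in wild type arrays 1 to 3. Wild type 1 and null 4 were thus the nearest pair across the genotypes. The part of array spread in the differences was not tested beyond the covariate and quantile values given.

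In the BAF core, Smarcc2 had the largest difference on the brightest probe sets. Smarcc2 encodes BAF170, a scaffold of the complex. It read 9.97, 10.22, 10.77 and 10.23 in null arrays 1 to 4, 10.37 in the heterozygote and 9.83, 9.26 and 9.41 in wild type arrays 1 to 3. The groups did not overlap, by a margin of 9.97 in null 1 to 9.83 in wild type 1, and the difference of 0.80 (95% interval 0.34 to 1.25) had an adjusted p of 0.0816. It passed without wild type 1 (0.0413). Its paralogue Smarcc1, encoding BAF155, differed by 0.12 (-0.28 to 0.53) on its brightest probe set and by 0.86 (adjusted p = 0.214) on another, whose wild type arrays spread from 6.59 to 7.89. Smarce1, a DNA-binding HMG-box subunit, differed by 0.58 (adjusted p = 0.244), and null 4 (9.68) lay among the wild type arrays. Smarcb1, Smarcd1, Smarcd2 and Smarcd3 differed by 0.03, -0.03, -0.09 and -0.11 on their brightest probe sets. On 3 other core probe sets every null array was below every wild type array, Smarcb1 at -0.32 and -0.19 and Smarcc1 at -0.33 (adjusted p = 0.230, 0.370 and 0.212). These are 17.6% of the core probe sets, where 8.85% of all were below, and the 1 core probe set with null above, that of Smarcc2, is 5.88%, where 7.70% of all were above. Of 17 core probe sets, 7 were positive, 10 were negative and 0 were called.

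The ARID subunits, which mark the canonical BAF form, differed in the same direction on each of their 3 probe sets. Arid1b read 8.80, 8.89, 8.82 and 8.68 in null arrays 1 to 4, 8.59 in the heterozygote and 8.51, 7.78 and 7.80 in wild type arrays 1 to 3. The groups did not overlap, and wild type 1 stood well above the other wild type arrays. The difference of 0.77 (95% interval 0.36 to 1.17) had an adjusted p of 0.0644, and 0.00802 without wild type 1. Arid1a differed by 0.55 (adjusted p = 0.281) and 0.63 (adjusted p = 0.195) on its 2 probe sets, and wild type 1 overlapped with the null arrays on both.

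The subunits of the PBAF and ncBAF forms had no call. PBAF contains Arid2, Pbrm1 and Brd7, and ncBAF contains Brd9. Brd7 had the largest difference of the 4 genes on their brightest probe sets. It read 8.43, 8.68, 8.42 and 7.55 in null arrays 1 to 4, 8.51 in the heterozygote and 7.85, 7.81 and 7.97 in wild type arrays 1 to 3, so that 3 null arrays stood above wild type and null 4 below it. Its difference of 0.39 had an adjusted p of 0.354, and 0.0335 without null 4. Pbrm1, Brd9 and Arid2 differed by 0.35, 0.35 and 0.33 on their brightest probe sets (adjusted p = 0.350, 0.355 and 0.297). Of the 10 probe sets of these genes 9 were positive, and the exception, an Arid2 probe set at -0.40, had every null array below wild type (adjusted p = 0.200).

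No subunit of the progenitor-type or neuron-type BAF assembly passed the threshold. They had 8 and 7 probe sets, and of all probe sets 1.87% were called higher and 0.453% lower. With so few probe sets, 0 calls says little about the exchange of subunits. Of the progenitor-type genes, Actl6a encodes BAF53a, an actin-related protein. It read 8.18, 8.20, 8.01 and 8.37 in null arrays 1 to 4, 8.33 in the heterozygote and 9.06, 7.80 and 8.16 in wild type arrays 1 to 3. The wild type arrays enclosed the null arrays (difference -0.15, 95% interval -0.72 to 0.42), and without wild type 1 the sign turned, to 0.21. Its other probe sets differed by 0.37 and -0.10.

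Phf10, which encodes BAF45a, read 8.66, 8.95, 9.04 and 8.29 in null, 8.96 in the heterozygote and 8.38, 7.88 and 8.28 in wild type. Null 4 lay between wild type 3 and wild type 1, and the other null arrays were above all wild type arrays (difference 0.56, 95% interval 0.11 to 1.01, adjusted p = 0.186). Ss18, the subunit that is exchanged for Ss18l1, read 9.07, 9.40, 9.14 and 8.38 in null, 9.04 in the heterozygote and 8.26, 7.37 and 8.23 in wild type. Its groups did not overlap, with null 4 at 8.38 next to wild type 1 at 8.26, and the difference of 1.05 (0.43 to 1.66) had an adjusted p of 0.0885, and 0.0246 without null 4. Its other 2 probe sets were dim and differed by 0.16 and 0.21. Dpf2, a BAF45 subunit made in most cells, read 8.57, 9.10, 9.26 and 7.62 in null, 8.74 in the heterozygote and 8.36, 7.98 and 8.14 in wild type. Null 4 was the lowest of all 8 arrays and the other null arrays were above wild type (difference 0.48, -0.28 to 1.23, adjusted p = 0.418).

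Of the neuron-type genes, Actl6b encodes BAF53b. It read 9.66, 9.81, 10.07 and 9.03 in null arrays 1 to 4, 10.10 in the heterozygote and 9.34, 9.44 and 9.63 in wild type arrays 1 to 3. The null arrays spread on both sides of wild type (difference 0.17, 95% interval -0.32 to 0.66, adjusted p = 0.645). Dpf1, which encodes BAF45b, read 10.76, 10.68, 10.79 and 9.96 in null, 10.94 in the heterozygote and 10.65, 10.37 and 10.27 in wild type. Again 3 null arrays were the higher and null 4 the lowest (difference 0.12, -0.35 to 0.58, adjusted p = 0.741). Dpf3, which encodes BAF45c, read 7.88, 7.64, 7.78 and 7.87 in null, 7.58 in the heterozygote and 7.74, 7.72 and 8.05 in wild type, a difference of -0.04 (-0.34 to 0.25). For Actl6b, Dpf1 and Dpf3 alike, a rise as large as that of Chd5 (1.05) lies outside the interval of the brightest probe set.

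Ss18l1, which encodes CREST, had the largest difference of the neuron-type genes and did not pass. It read 9.83, 9.90, 10.69 and 9.50 in null arrays 1 to 4, 10.17 in the heterozygote and 9.66, 8.69 and 8.30 in wild type arrays 1 to 3. Wild type 1 overlapped with null 4 while the other wild type arrays were lower than any null array (difference 1.10, 95% interval 0.34 to 1.85, adjusted p = 0.136, and 0.0322 without wild type 1). Its other probe set, of a kind that can bind several transcripts, differed by -0.16. Ss18 and Ss18l1, the pair that is exchanged, had differences of 1.05 and 1.10 on their brightest probe sets, neither with a call. Under the spread covariate these were 0.55 and 0.44, and with the probe sets of a gene averaged 0.47 and 0.47. Actl6a and Actl6b had -0.15 and 0.17. Over the 8 progenitor-type probe sets 5 differences were positive and 3 negative (median 0.18), and over the 7 neuron-type probe sets 4 were positive and 3 negative (median 0.12).

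**Figure D4:**
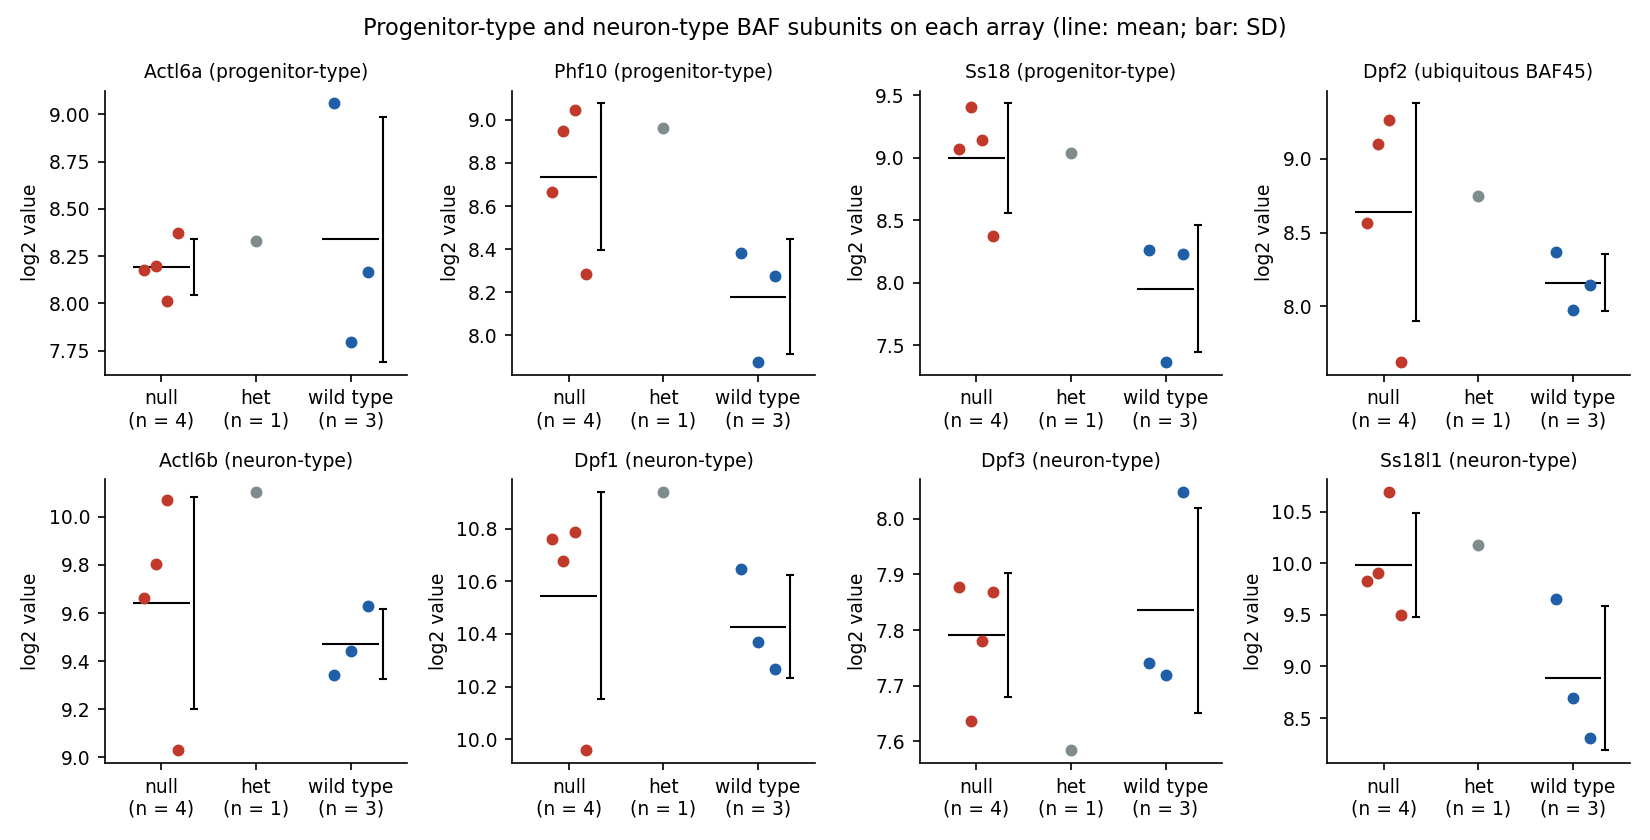
Log2 values of the brightest probe set of the progenitor-type genes Actl6a, Phf10 and Ss18, of Dpf2, and of the neuron-type genes Actl6b, Dpf1, Dpf3 and Ss18l1, with null, heterozygote and wild type from left to right; lines are means and bars SDs. Null 4 is the lowest null array on Phf10, Ss18, Dpf2, Actl6b, Dpf1 and Ss18l1, and null and wild type are apart only on Ss18.

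The place of the heterozygote varied between genes. On the brightest probe sets of the 40 genes it lay inside the null range alone on 19, inside the wild type range alone on 5, inside both on 5, between the groups on 3, above all other arrays on 6 and below them on 2. The 19 are 47.5% of the subunit genes, where 38.9% of all genes with a brightest probe set above the median level lay there, and the null range spans 4 arrays while the wild type range spans 3. Those above all others were Chd3, Hdac2, Rbbp4, Rbbp7, Actl6b and Dpf1. The heterozygote was thus above all others on 15% of the subunit genes. It was so on 14% of all genes and on 18.5% of those with a brightest probe set above the median level. It exceeded every wild type array on 26 of 40 (65.0%), where it did so on 44.7% of all genes above the median level, and on 42 of the 76 member probe sets above the median level (55.3%), where it did so on 42.3% of all probe sets above that level. The array of this mouse had the widest spread of values of all 8, with an SD of 2.06. With it counted among the controls, 0 member probe sets were called by limma, where 0.244% of all probe sets were called higher. At an unadjusted p under 0.05, 11 were then higher and 1 lower, where 5.67% and 3.80% of all were.

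Probe sets of a gene did not always move together. Of 29 genes with more than 1 probe set, 15 had differences of both signs, among them Chd4, Actl6a, Phf10, Ss18l1, Arid2 and Bcl7a. In Actl6a, Gatad2b and Mbd2 the brightest probe set was negative and a dimmer one positive. In all the rest of the 15 the brightest was positive and a dimmer one negative. Across the array 51.1% of probe sets above the median level were positive and 25% of those below it. Sign counts taken on the brightest probe sets are therefore to be read beside those of bright probe sets.

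Other chromatin regulators had calls as well. The lists were NuRD recruiters, other Bcl11b partners, Sin3 and CoREST, other remodellers, Polycomb, other deacetylases and other methyl-CpG binding proteins. They held 68 measured genes with 197 probe sets. Of these, 12 (6.09%) were called higher and 1 lower, where 1.87% and 0.453% of all probe sets were. At an unadjusted p under 0.05, 46 (23.4%) were higher and 9 lower, where 10.9% and 8.74% of all probe sets were. Of the member probe sets 17.9% were higher at that threshold. Above the median level 8.33% of the listed probe sets were called higher, where 6.58% of members and 3.23% of all were. Among recruiters and relatives of NuRD 3 of 28 probe sets (10.7%) rose and 1 fell. They included 2 of 7 for Bcl11a, the paralogue of Bcl11b, which rose 2.41-fold and 2.74-fold (adjusted p = 0.0169 and 0.00761). Cdk2ap1, a small NuRD subunit, rose 1.46-fold (adjusted p = 0.0491), and Zfpm1, the NuRD-recruiting cofactor FOG1, fell 1.59-fold on a dim probe set (adjusted p = 0.0324). Among other partners 2 of 18 (11.1%) rose, in Sp1 (1.77-fold, adjusted p = 0.0173), a GC-box binding factor, and Cbx5 (1.55-fold, adjusted p = 0.0399), the heterochromatin protein HP1 alpha. Kdm1a and Sirt1 differed by 1.06 and 0.98 without a call (adjusted p = 0.136 for each).

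Among ATPases and partners of other remodelling complexes 5 of 56 probe sets (8.93%) rose, where 1.87% of all probe sets did. They belonged to Smarca1, an ISWI ATPase (2.07-fold, adjusted p = 0.0489), Baz1b, an ISWI partner (1.85-fold, 0.0337), Chd8 (2.17-fold on a dim probe set, 0.0497) and Atrx, a heterochromatin remodeller (2.03-fold and 1.83-fold, 0.0171 and 0.0366). Chd6, of the same family as Chd8, differed by 1.23 (adjusted p = 0.0686). Rnf2, the ubiquitin ligase of Polycomb repressive complex PRC1, was called among 31 Polycomb probe sets (2.01-fold, 0.0360) and Hdac11 among 15 of other deacetylases (1.94-fold, 0.0317). These calls are 3.23% and 6.67% of the probe sets on their lists. Sin3 and CoREST genes, with 40 probe sets, and other methyl-CpG binding proteins, with 9, had 0 calls by limma, and at an unadjusted p under 0.05 there were 5 higher and 1 lower among the Sin3 and CoREST probe sets (12.5% higher, where 10.9% of all were) and 0 higher and 1 lower among the others.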

How the data were processed

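Per the submitters' processing notes and the series' design text, the authors normalized the Affymetrix arrays with RMA, and the deposited table holds the resulting log2 value of each probe set. The sources used here name neither the RMA version nor the arrays normalized together. The values were used as deposited for all 45037 probe sets; 34945 carry 1 gene symbol, 932 several and 9160 none.

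Null and wild type arrays (4 and 3 mice) were compared with limma 3.58.1 in R 4.3.3 (lmFit and eBayes, no covariate, Benjamini-Hochberg over all probe sets, threshold 0.05), after the code was tested on simulated data. The heterozygote stayed out of the test. A gene stood on its probe set of highest mean over these 7 arrays. The number of arrays limits the precision. Intervals are at 95% and unadjusted. Genes described array by array were those called, the largest difference in each role, and the progenitor-type and neuron-type subunits. The members and lists were chosen with earlier results of these data known. Named other regulators were those called and the largest differences. The study itself used SAM, run here as an alternative. Figures used matplotlib 3.10.9.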

Additional observations from a re-analysis of the deposited data

Results flagged for a closer look

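Among the 21 probe sets described array by array, the 4 null arrays were searched for a single array far from the rest by Dixon's test, which flags about 1 in 20 groups by chance. Null 4 stood apart on the brightest probe set of Dpf1, at 9.96 against 10.68 in the nearest null array, a gap of 0.869 of the range of the 4, above the 95% critical value.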

How the results depend on the processing

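The number of member probe sets called higher in null was 5 and ranged from 1 to 10 with single arrays left out. It was 10 without wild type 1 (10.5%, where 3.85% of all probe sets were called higher) and 9 without null 4 (9.47%, where 3.80% were). It was 3 without null 3 (3.16%, where 1.15% were) and 2 without null 1 (2.11%, where 0.719% were). It was 1 (1.05%) without wild type 2, wild type 3 or null 2, where 0.613%, 0.466% and 0.626% were. The calls over all probe sets moved with these counts, from 210 without wild type 3 to 1733 without wild type 1, against 840 with all 7 arrays, and were 2686 with array weights and 189 with the SD covariate. The number called lower was 0, and 0 to 1 with single arrays left out. The number of other chromatin probe sets called was 13, and 1 to 22. The SAM score beyond 2 gave 15 higher, 9 lower and 54 others, and array weights 10, 1 and 32. Of all probe sets 10.3% were higher by the SAM score and 5.96% were called higher with array weights. An adjusted p under 0.1 gave 9 higher and 22 others, and under 0.01 gave 0 and 1, where 3.75% and 0.422% of all probe sets were called higher. Median centring gave 3 and 7, where 1.22% of all probe sets were called higher, and 1 probe set per gene 3 and 6, where 2.86% of all genes were. The mean of a gene's probe sets gave 5 of 40 genes higher (12.5%, where 3.01% of all genes were) and 6 others. Hdac1 (adjusted p = 0.0369) and Arid1b (0.0391) were called there beside Chd5, Smarca2 and Bcl7c. Averaging left the Hdac1 and Arid1b differences at 0.58 and 0.77, so their calls came from fitting and adjusting over genes. The heterozygote among the controls gave 0 and 0 (at an unadjusted p under 0.05, 11 higher, 1 lower and 32 others), the SD covariate 0 and 1 (11, 2 and 32), and leaving out both wild type 1 and null 2 gave 2 and 7. In these settings, in order, 0.244%, 0.42% and 0.915% of all probe sets were called higher. No share of all probe sets stands beside the unadjusted counts under the SD covariate, so they are not read further. The replicate block gave 8 higher (8.42%, where 3.77% of all probe sets were), and null 4 adds nothing to that fit. Deviations from the group mean in wild type and null arrays of 1 number had r = -0.252, -0.309 and -0.168 for numbers 1 to 3. Arrays of unlike number had r from -0.415 to 0.372, so these values cannot tell whether the numbers pair the mice. Signs turned only on genes without a call. Dpf3 turned after median centring (0.016), when the heterozygote joined the controls (0.018) and under the SD covariate (0.042), and ranged from -0.10 to 0.061 with single arrays left out, positive without wild type 3 and, at 0.0067, without null 2. Actl6a ranged from -0.42 to 0.21, positive without wild type 1, and turned without both wild type 1 and null 2 (0.21) and with probe sets averaged (0.040). Dpf1 turned when the heterozygote joined the controls (-0.010), after quantile normalization (-0.076) and under the SD covariate (-0.24), Actl6b under the last 2 of these (-0.036 and -0.13), and Dpf2 under the SD covariate (-0.21). The cause was not tested.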
